A study of Drosophila melanogaster with 12 samples.

Results

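The regions described here are stretches of the Drosophila melanogaster genome that were bound by the Hox protein Ultrabithorax (Ubx) in haltere discs and lie far from any protein-coding gene. They were picked by position alone from the authors' consensus list of haltere Ubx regions. A region was kept when its midpoint lay on 2L, 2R, 3L, 3R, 4 or X, outside every protein-coding gene and more than 1000 bp from any end of one. Regions in the tandem histone gene stretch of 2L were left out, as were chains of 5 or more regions joined by gaps of at most 10000 bp. This left 424 of the 2171 consensus regions. Another 329 regions met the distance rule but belonged to such chains. Positions are taken to be on BDGP6, the only build named in the submitters' processing notes, which do not say what it was used for. Genes are those of RefSeq for Release 6.

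The study immunoprecipitated Ubx chromatin from wing and haltere imaginal discs of wild-type Canton S larvae of the wandering L3 stage, with a polyclonal antibody to the N-terminal part of Ubx. Its 12 samples form 4 groups of 3 replicates, which are Ubx ChIP and input from each disc. The haltere Ubx ChIP libraries have the peak lists used here, with 2869, 2361 and 3859 peaks in replicates 1, 2 and 3. The wing ChIP and all input libraries were not analysed here, and nothing below compares the discs. A whole disc holds epithelium together with other cells, so a region bound in few cells cannot be told apart from one bound weakly in many. The lists give no read counts and the depth of each library is unknown, so a missing peak means only that none passed the authors' limit.

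Ubx is the Hox transcription factor that makes the haltere, a small balancing organ, differ from the wing. Hox proteins bind DNA through a homeodomain, often beside the cofactors Extradenticle and Homothorax. In Drosophila, genes that control development are often surrounded by long gaps without other protein-coding genes, and many known enhancers lie in such gaps, far from the promoter they act on. For a region in such a gap the nearest gene is not always the gene it regulates, which is why both flanking genes are given.

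The strongest region of all lay in the bithorax complex. It spans 408 bp of 3R, from 16764009 to 16764416, inside the non-coding gene lncRNA:bxd, which is transcribed from the regulatory DNA next to the Ubx gene. Its flanking protein-coding genes are CG31275, at 12.9 kb, and the sugar transporter gene Glut3, at 24.1 kb. The authors' fold enrichment, a linear ratio of ChIP signal to background in each peak, was 11.1, 14.0 and 20.5 in replicates 1 to 3. These values stood at the 99.2nd, 99.9th and 100th percentiles of their lists, and the 3 peak summits lay within 13 bp of each other. In all, 7 regions lay in the neighbouring intervals from Ubx to CG31275 and from CG31275 to Glut3, and 5 of them were inside lncRNA:bxd, 4 of these in all 3 libraries. The 3 between Ubx and CG31275 were weaker. The best of those in all 3 libraries, at 16746906 to 16747142 and 12.6 kb from Ubx, had folds of 4.33, 5.68 and 5.31, while another had 2.52, 4.52 and 5.10. The third, absent from replicate 1, had 4.50 and 5.54.

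The second strongest region lay 1.68 kb from Antp, the Hox gene of the second thoracic segment, on 3R from 7000594 to 7001228. It was 635 bp wide, with folds of 14.7, 9.66 and 16.5 in replicates 1 to 3. The 53.1 kb gap between Antp and Sodh1, a sorbitol dehydrogenase gene, held 3 further regions. One of these, 38.4 kb from Antp at 7037264 to 7037909, had folds of 9.20, 6.82 and 9.08. Elsewhere in the Antennapedia complex a region in all 3 libraries lay between Dfd and Scr, Hox genes of the head and first thoracic segment, 10.1 kb from the one and 10.6 kb from the other. Its folds differed widely between libraries, at 4.40, 8.09 and 13.2, although all 3 summits lay within 4 bp.

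Several of the strongest regions lay beside genes of transcription factors or cell adhesion. Such flanks were not special to strong regions. Over all far intergenic regions, at least 1 flank was a listed transcription factor gene in 27.6%. A gene of any list used below was a flank in 38.4%. Whether the strongest regions had such flanks more often was not tested. A region between Syx7, which encodes a syntaxin, and the forkhead gene croc had folds of 8.62, 10.7 and 14.3 (3L, 21460205 to 21460463; 13.8 kb from croc). A region 1.33 kb from shg, the E-cadherin gene, had folds of 8.71, 8.75 and 12.4 (2R, 21048133 to 21048520), and ND-B14.7, a gene for a subunit of mitochondrial complex I, was its other flank. A region 11.8 kb from drm, a zinc finger gene of the odd-skipped family, had folds of 10.6, 7.05 and 11.7 (2L, 3559962 to 3560410). Near engrailed, the homeobox gene of posterior compartments, a region had folds of 6.73, 8.29 and 11.5 (2R, 11575565 to 11575957). It lay 47.6 kb from en but only 1.72 kb from tou, whose product acts in chromatin remodelling, so the nearest gene and the patterning gene differed. These regions, like the strongest of Antp and of bxd, had folds above the medians over the far intergenic regions in every library (4.49, 4.50 and 5.29). That follows largely from their choice by mean fold percentile and is no separate result.

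**Figure D1:**
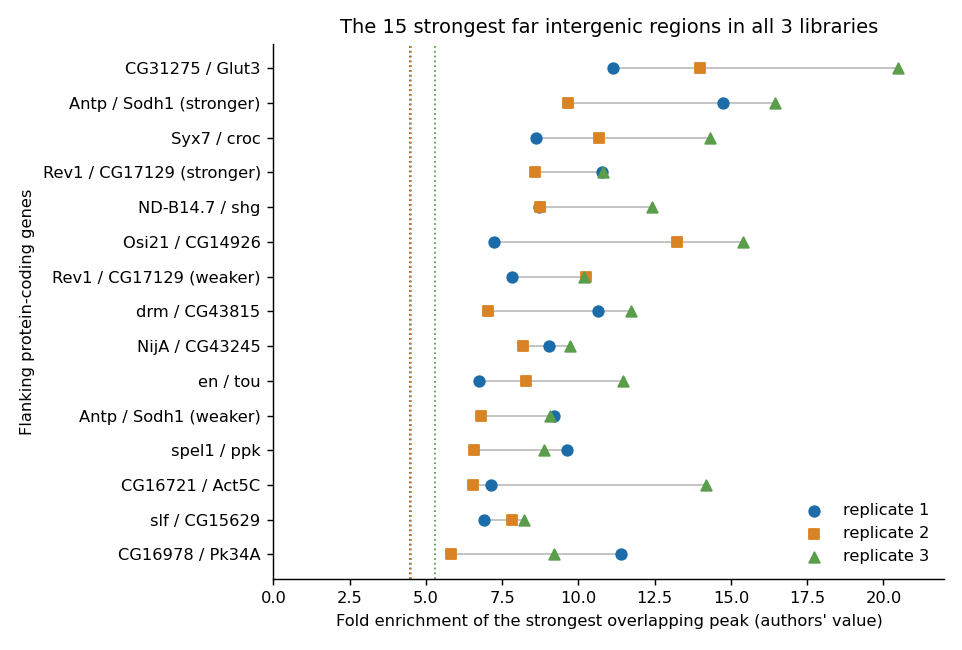
Fold enrichment of the strongest overlapping peak in each replicate (x axis, linear, the authors' values) for the 15 strongest far intergenic regions found in all 3 libraries, ordered by mean percentile and named by their flanking genes. Each line joins the lowest and highest replicate, and dotted lines are the medians over all far intergenic regions (4.49, 4.50 and 5.29). Every point lies to the right of its own median, largely because the regions were chosen by mean fold percentile.

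Strong regions also lay in gaps without a listed developmental gene. Between Rev1, which encodes a translesion DNA polymerase, and CG17129, 2 regions stood among the 15 strongest. The stronger was the widest of these 15 at 967 bp (3L, 666991 to 667957), with folds of 10.8, 8.59 and 10.8, and the weaker had 7.84, 10.2 and 10.2. A region 20.3 kb from Osi21, a member of the Osiris gene family, had folds of 7.24, 13.2 and 15.4 (2L, 11305803 to 11306240). A region beside NijA, which encodes the adhesion protein Ninjurin A, had 9.03, 8.17 and 9.73. A region between CG16721 and the actin gene Act5C had 7.15 and 6.54 in replicates 1 and 2 and 14.2 in replicate 3. The remaining 3 of the 15 lay between the mismatch repair gene spel1 and the sensory channel gene ppk, between slf and CG15629, and between CG16978 and Pk34A, with folds from 5.82 to 11.4. Among the 15, replicate 3 gave the highest fold at 11, replicate 1 at 3 and replicate 2 at 1.

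Taken over all 424 regions, the binding was reproducible in part. All 3 libraries overlapped 195 regions (46.0%; 95% Wilson interval 41.3 to 50.7%), against 45.0% over the 2027 consensus regions outside the histone stretch, a share near the background. Replicates 2 and 3 shared 156 regions that replicate 1 lacked, replicates 1 and 3 shared 63 that replicate 2 lacked, and replicates 1 and 2 shared 10 that replicate 3 lacked. Replicate 1 therefore overlapped 268 regions, replicate 2 361 and replicate 3 414. Intervals on shares of regions, peaks or genes cover counting error only, and regions are not replicates. Regions in all 3 libraries had a median width of 292 bp and median folds of 4.68, 5.11 and 6.60. Those in 2 libraries had a median width of 165 bp and median folds of 4.31, 3.98 and 4.66. Because the consensus list keeps only bases shared by at least 2 libraries, its regions can be very short, and widths ran from 4 to 1088 bp.

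Within the 195 regions, the rank of the folds was more alike between replicates 2 and 3 (Spearman's rho 0.58) than between replicate 1 and replicate 2 (0.34) or replicate 3 (0.31). The same values over 311 regions deep inside genes were 0.57, 0.31 and 0.31. These describe sites within the same 3 libraries, which share their peak caller. The summits of the 3 libraries spanned a median of 82 bp (quartiles 39 and 164 bp), and in 107 of the 195 regions (54.9%) they lay within 100 bp. The widest span was 786 bp.

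Peak strength was compared between the far intergenic regions and 751 regions deep inside protein-coding genes, which are those with a midpoint in a gene and over 1000 bp from any gene end, again without chains. The median percentile of fold within the list was 55.7, 63.4 and 70.3 in replicates 1 to 3 for the far intergenic regions, and 60.3, 62.2 and 68.0 deep inside genes. The far intergenic value was the lower one in replicate 1 and the higher one in the other two. The mean difference was -0.34 ± 3.72 percentile points (SD, n = 3), with an exact two-sided sign-flip permutation p of 1 over the libraries, where 0.25 is the smallest p that 3 libraries allow. Against 261 regions near gene ends the mean difference was 1.89 ± 4.26 points (exact sign-flip permutation p = 0.75). Neither comparison showed a difference larger than the spread between libraries. With replicate 1 left out and the consensus rebuilt, the mean difference from regions deep inside genes was -0.80 over replicates 2 and 3. The exact sign-flip permutation p of 0.5 there arises only when both differences have the same sign. Both were thus negative, and neither higher far intergenic value held.

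Recovery of each library's own peaks was compared by place, using the peak midpoint so that the consensus list played no part; peaks in chains were kept here. Of the far intergenic peaks, both other libraries overlapped 42.8% (370 of 865), 43.4% (367 of 845) and 29.3% (368 of 1254) for replicates 1, 2 and 3. Deep inside genes these shares were 28.8%, 42.8% and 25.4%, and near gene ends they were 24.2%, 32.7% and 16.4%. The excess of far intergenic over near-end peaks was 14.1 ± 4.04 percentage points (SD, n = 3), and that over deep peaks was 6.19 ± 6.96. Both were positive in 3 of 3 libraries, with an exact two-sided sign-flip permutation p of 0.25 for each, the smallest possible, so the design could not reach 0.05. A peak counted as recovered only where both other libraries overlapped it, so the 3 libraries count nearly the same recovered sites. Their shares differ mainly through the number of peaks in each list. The 3 excesses are therefore not independent, and neither the SD nor the p measures spread over independent replicates. The excess over deep peaks was smaller than its SD and came mainly from replicate 1. Chains had the highest share of regions in all 3 libraries (53.8%) and 329 of their 591 regions were far from genes, so the chain peaks enter the far intergenic shares. Over consensus regions without chains, the share in all 3 libraries was 46.0% far from genes, 41.4% deep inside genes and 34.1% near gene ends.

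**Figure D2:**
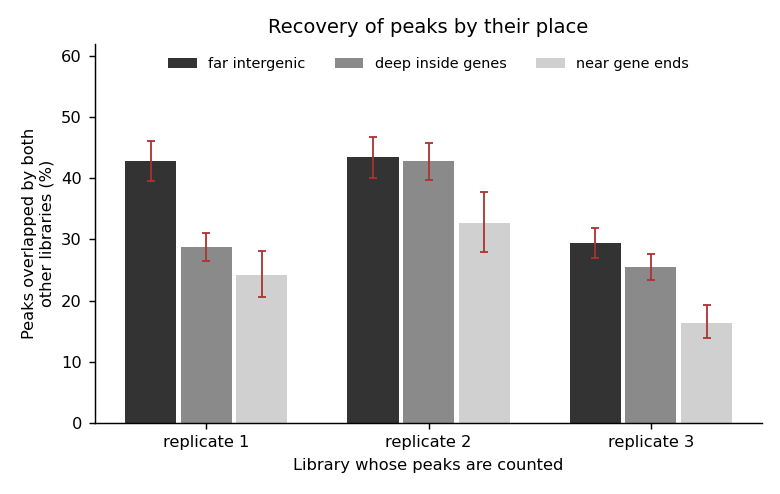
Share of each library's peaks overlapped by at least 1 bp in both other libraries (y axis, percent from 0), by the place of the peak midpoint; red bars are 95% Wilson intervals over peaks. Far intergenic peaks had the highest share in each library, by 14.0, 0.65 and 3.92 percentage points over peaks deep inside genes. The recovered peaks are nearly the same sites in each library, so these values are not independent.

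The far intergenic regions were spread over 5 of the 6 arms. Chromosome 2 had 85 on its left arm and 89 on its right, chromosome 3 had 111 and 99, and X had 40, while none of the 7 consensus regions on chromosome 4 qualified. Per megabase of gaps over 2000 bp between protein-coding genes, without the outer 1000 bp at each end, arms 2L to 3R had from 12.9 regions on 3L to 14.9 on 3R, whereas X had 7.92. On X, 15 of the 40 regions were in all 3 libraries, and replicates 1, 2 and 3 overlapped 26, 31 and 38.

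The regions lay a median of 5.25 kb from the nearest end of a protein-coding gene (quartiles 2.71 and 10.8 kb). In 121 regions (28.5%) the distance was over 10 kb and in 40 (9.43%) over 20 kb. The 3 regions just inside the limit of 1000 bp lay 1.01 kb from CG43203, 1.02 kb from hng3 and 1.03 kb from CG33453. Just outside it were regions 0.994 kb from Ankle2, 0.988 kb from CG3349 and 0.986 kb from CG3702, the last also flanked by the atypical cadherin gene ft. The region of CG43203 had folds of 3.56 and 4.58 in replicates 2 and 3, and that of CG3349 had 8.49, 11.1 and 11.1.

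Of the 5 regions farthest from any gene, 4 lay in the gene-poor proximal part of X. One of these was 209 kb from its nearest protein-coding gene, beyond the last gene of the arm, with folds of 2.40 and 2.46 in replicates 2 and 3 and no peak in replicate 1. The others lay between CG41562 and CG14621, a gap of 192 kb whose 5 regions had folds from 1.64 to 3.42 in any library, and only 1 of them was in replicate 1. These folds sat at or below the 17.3rd percentile of their lists at the 4 farthest regions on X. The authors' −log10 q values, which rise with significance, were not all low there. They were 5.98, 17.3 and 27.6 in replicates 1 to 3 at 22354420 to 22354783. At the region beyond the last gene they were 9.37 and 5.04 in replicates 2 and 3. The fifth, between the odorant receptor gene Or67d and CG12362 on 3L, was 55.8 kb from a gene, with folds of 5.01 and 4.23 in replicates 1 and 3. How repeated sequence was handled is not given in the sources used here, and its part in the low-fold regions on X was not tested.

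The 422 regions with a gene on both sides fell into 216 gaps, the intervals between neighbouring protein-coding genes, which is 8.33% of the 2593 gaps over 2000 bp. Gaps that held a region had a median length of 19.2 kb, against 7.33 kb over all of these gaps. The share that held a region was 1.78% at 2 to 5 kb, 4.78% at 5 to 10 kb, 12.8% at 10 to 20 kb, 18.5% at 20 to 40 kb and 28.7% at 40 to 80 kb. It was 14.6% above 80 kb (7 of 48; 7.25 to 27.2%). Long gaps offer more bases, and the rule bars the outer 1000 bp at each end of a gap. Per megabase of the bases that remain there were 14.8 regions at 2 to 5 kb, 12.2 at 5 to 10 kb, 16.6 at 10 to 20 kb and 16.8 at 40 to 80 kb, with no steady rise, and 3.24 above 80 kb. Regions in chains are not counted in any of these values. In 117 regions (27.6%) at least 1 flanking gene was on the lists of homeobox and other transcription factor genes, whose gaps make up 12.7% of the bases that lie in gaps over 2000 bp and more than 1000 bp from their ends. The share was 26.6% (61 of 229) for regions in 2 libraries and 28.7% (56 of 195) for those in all 3. At 20 to 40 kb, 20 of 55 gaps bordered by such a gene held a region, against 43 of 286 other gaps. At 40 to 80 kb the counts were 15 of 21 against 20 of 101, and above 80 kb 1 of 4 against 6 of 44. The transcription factor lists were chosen with earlier results of these data known, so these values are not independent support.

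**Figure D3:**
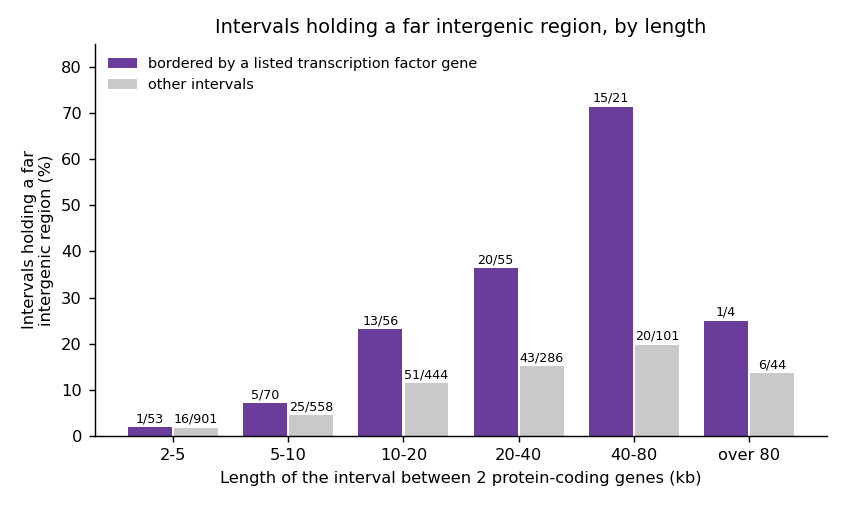
Share of gaps between 2 neighbouring protein-coding genes that held a far intergenic region (y axis, percent from 0) by gap length in kb, split by whether either bordering gene is on the transcription factor lists; numbers above the bars are gaps with a region over all gaps. Both shares increased up to 40 to 80 kb, where they were 15 of 21 and 20 of 101.

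When 1 flank was a listed transcription factor gene and the other was not, the region was nearer to the listed gene in 51 of 101 cases (50.5%). The listed gene was thus the nearer flank about as often as not. The region near tou and far from en, named above, is such a case.

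Regions were unevenly shared out among the gaps. Of the 216 gaps, 118 held 1 region, 40 held 2, and 58 held 3 or more, which together account for 224 regions. The gap between vvl, a POU homeobox gene of tracheal and wing vein development, and Prat2, a gene of purine synthesis, is 117 kb long and held 7. They ran from 8.19 to 81.2 kb from vvl, 5 were in all 3 libraries, and all 7 were in replicates 2 and 3. Their folds ran from 3.32 to 5.78, 3.91 to 8.94 and 4.67 to 9.30 in the 3 libraries. The gap from Osi21 to CG14926 also held 7, with 5 in all 3 libraries and folds up to 15.4. Tollo, a receptor gene of the Toll family, and Best4, a bestrophin channel gene, had 7 regions between them, 6 of which replicate 1 overlapped and 4 replicate 2. Their number was 4 without replicate 1 and 3 without replicate 3.

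The gap of 39.3 kb between fj, a Golgi kinase gene of planar polarity, and Ote, which encodes a nuclear envelope protein, held 6 regions and 5 of them were in all 3 libraries. The 3 regions nearest to Ote lay 32.8, 33.8 and 34.7 kb from fj, and the middle one reached folds of 9.01 and 12.1 in replicates 2 and 3 but 3.76 in replicate 1. Between plh and corto, a gene for a chromatin protein, 4 of 6 regions were in all 3 libraries, the best with folds of 7.33, 6.05 and 12.2. The Iroquois homeobox genes caup and mirr also had 6 regions between them, over a gap of 71.8 kb. There, only the region 22.3 kb from caup was in all 3 libraries, with 3.94, 5.41 and 9.99, and 3 others were in replicates 1 and 3 only. The number of regions was 3 without replicate 1 and 1 without replicate 3. Between Cyp12e1, a cytochrome P450 gene, and hth, the gene of the Hox cofactor Homothorax, 1 of 6 regions was in all 3 libraries. Its folds of 4.41, 4.20 and 4.62 were below the medians over the far intergenic regions in every library. The number here was 2 without replicate 2 and 1 without replicate 3.

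**Figure D4:**
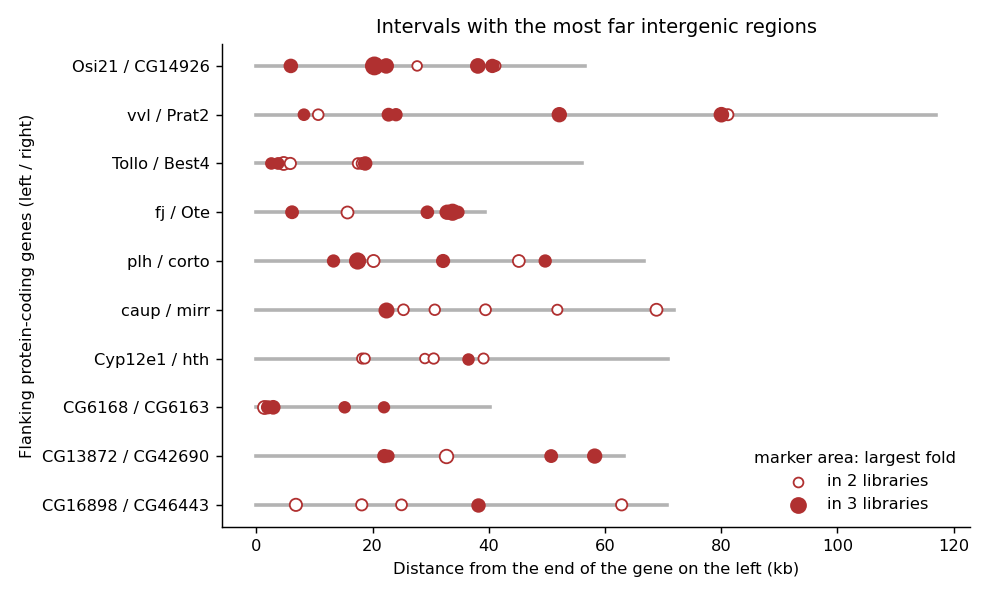
Position of far intergenic regions in 10 of the 13 gaps with 5 or more of them (of 6 gaps with 5, the 3 shown come first by regions in all 3 libraries, then by strength), as distance in kb from the end of the gene on the left; the grey line is the gap, filled markers are regions in all 3 libraries, open markers regions in 2, and marker area grows with the largest fold. Filled markers prevail between fj and Ote (5 of 6) and open ones between Cyp12e1 and hth (5 of 6).

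The gap between Hsp70Ba and Hsp70Bbb, named after its values were seen, differed from these. It held 5 regions, all of them in replicates 2 and 3 and none in replicate 1, with folds from 3.72 to 5.34 and from 3.36 to 5.10. These heat shock genes are near-identical copies in repeated DNA, where reads can match several places, and what part this had was not tested.

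Both flanking genes of every region were next read against gene lists. Over all 13922 protein-coding genes on the 6 arms, 404 (2.90%) flanked a far intergenic region, and 251 (1.80%) flanked one found in all 3 libraries. Among the 1663 genes that border a gap of at least 10 kb the first share was 19.7%. Of 66 genes of wing and haltere patterning, 33 flanked a region (50%), and 22 flanked one in all 3 libraries. Within the 43 that border a gap of at least 10 kb it was 30 (69.8%). This list and those below were chosen with earlier results of these data known, so none of their counts is independent support. Of the patterning genes, 47 are also on the transcription factor lists.

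Among the patterning genes, the best regions were those of Antp, drm and en given above. The region of bi, the T-box gene optomotor-blind that acts downstream of Dpp, lay 7.73 kb from the gene with folds of 7.18, 6.77 and 8.81 (X, 4493236 to 4493526). On the other side of bi, 11.1 kb away, a region at 4401550 to 4401971 had 16.6 in replicate 1 but 6.62 and 4.50 in replicates 2 and 3. This was the highest replicate 1 fold of any far intergenic region and was named after its values were seen. The region of bs, the gene of serum response factor in wing intervein cells, lay 4.68 kb away with 9.22, 4.90 and 10.2. Dll, the homeobox gene of distal appendages, had 2 regions in all 3 libraries, 1.35 and 1.93 kb away, which share 1 peak of replicate 2 with a fold of 7.57. The nearer had 4.95 and 8.07 in replicates 1 and 3, and the other had 5.20 in replicate 1. The Pax genes eyg and toe shared a region with folds of 10.7, 6.18 and 5.05, and tup, the LIM homeobox gene of the notum, had one 26.1 kb away with 5.44, 5.59 and 7.74.

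The gene of the BMP-type morphogen dpp had 3 regions. The one in all 3 libraries lay 7.37 kb from dpp with folds of 4.15, 7.74 and 6.60 (2L, 2467054 to 2467323). The zinc finger gene noc also had 3, the first by mean percentile 29.4 kb away with 4.95, 4.36 and 6.74. By contrast, wg, the Wnt gene of the wing margin and hinge, flanked 2 regions and neither was in all 3 libraries. The one shared with Wnt4 had 6.89 in replicate 1 and 4.15 in replicate 3. The wing selector gene vg had 3 regions, and the best had 3.96, 4.08 and 5.12, below the medians over the far intergenic regions in every library. It is named here after its values were seen.

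Of 88 homeobox genes, 26 flanked a region (29.5%), and 19 flanked one in all 3 libraries. Among the 49 that border a gap of at least 10 kb it was 23 (46.9%), against 19.7% of all such genes. Where both flanks of a region are listed, each gene is counted, as with Dfd and Scr. Besides those above, Rx had a region 2.53 kb away with 6.39, 5.25 and 8.13, and so, the eye gene sine oculis, had one 5.30 kb away with 7.68, 4.33 and 6.60. The embryonic gene bcd and its neighbour Ama, which encodes a secreted immunoglobulin-domain protein, shared one with 4.21, 5.07 and 7.72. Of 143 other transcription factor genes, 28 flanked a region (19.6%), and 18 flanked one in all 3 libraries. Among the 66 that border a gap of at least 10 kb it was 25 (37.9%). The tendon cell gene sr had a region 7.59 kb away with 6.44, 5.71 and 9.62. The forkhead gene slp2 had 4.76, 5.59 and 7.07, the sex determination gene dsx had 4.31, 5.60 and 8.26, and the GATA factor gene grn had 3.97, 5.33 and 7.36. The T-box genes H15 and mid shared the gap of a region with 5.14, 4.26 and 6.43, and Eip75B, a nuclear receptor gene induced by ecdysone, had one 25.1 kb away with 4.21, 5.54 and 5.53.

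Of 53 genes of secreted signals, 10 flanked a region (18.9%), and among the 17 that border a gap of at least 10 kb it was 9 (52.9%). Only 4 flanked a region in all 3 libraries: dpp, hh, Wnt6 and Wnt10. Wnt6 and Wnt10 shared theirs, with folds of 3.92, 7.65 and 7.78, and that of hh lay 6.33 kb away with 3.71, 7.30 and 5.08. In each of these 3 regions replicate 1 gave the lowest fold. The JAK/STAT ligand genes upd1 and upd3, the netrin gene NetA and the FGF gene ths had regions in replicates 2 and 3 only. Of 129 genes of cell surface recognition and adhesion, 13 flanked a region (10.1%). In the 63 that border a gap of at least 10 kb it was 12 (19.0%), close to the 19.7% of all such genes. The best were shg, described above, and the leucine-rich repeat genes trn (6.02, 6.58 and 9.96) and kek1 (5.45, 8.26 and 7.71), followed by Tollo (5.51, 6.29 and 7.46) and the guidance receptor gene robo1 (4.71, 5.97 and 8.80).

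Of 121 cuticle protein genes, 2 flanked a region (1.65%), Cpr12A and Cpr35B, and of 91 ribosomal protein genes 1 did, RpL13 (1.10%). With 95% Wilson intervals of 0.454 to 5.83% and 0.194 to 5.96%, neither share could be told apart from the 2.90% of all genes. Few of these genes border long gaps: 9 of each list border one of at least 10 kb, and their longest gaps had medians of 1.69 kb for cuticle and 0.569 kb for ribosomal protein genes, against 21.2 kb for the patterning genes. Of the 424 regions, 163 (38.4%) had a gene of any list as a flank. The share of gaps bordered by a gene of any list was not computed, so this count shows no excess.

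**Figure D5:**
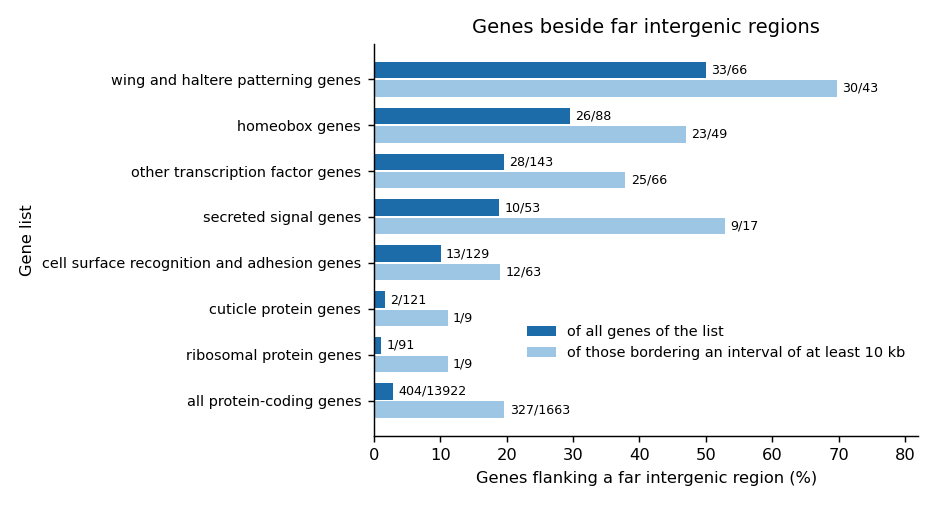
Share of genes that flank a far intergenic region (x axis, percent from 0) in each list and over all protein-coding genes; dark bars use every gene of a list, light bars only genes that border a gap of at least 10 kb, and the numbers are genes flanking a region over genes counted. Patterning genes reached 33 of 66 and 30 of 43, while the adhesion list at long gaps (12 of 63) was close to all such genes (327 of 1663).

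Some regions were far from protein-coding genes but inside non-coding ones. The midpoint lay in a long non-coding RNA (lncRNA) gene in 59 regions (13.9%), over 46 such genes. All lncRNA genes together cover 6.78% of the bases that lie in gaps over 2000 bp and more than 1000 bp from protein-coding genes. With 5 regions, lncRNA:bxd held the most. On X, lncRNA:CR32773 beside bi, lncRNA:CR45668 beside Act5C and lncRNA:CR44833 beside ovo, a zinc finger gene, held 3 each. The regions 1.68 kb from Antp and between Dfd and Scr lay in lncRNA:CR45899 and lncRNA:CR42651. One region lay in an antisense RNA gene, 1 in a pseudogene and none in a microRNA gene.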

How the data were processed

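Peaks were called with MACS2 in each haltere Ubx ChIP library, per the labels' series design text. The submitters' processing notes also name Trimmomatic 0.36, BWA and build BDGP6. The control, options and treatment of multiply mapping reads are not given in the sources used here. Each deposited peak has a fold (a linear ratio), −log10 p and q values and a score. In every deposited row the score equals 10 times the −log10 q-value, cut to a whole number. The deposited consensus list gives positions only (1-based here). Taking stretches covered by at least 2 lists rebuilt all 2171 of its regions. It is not a peak list of its own, so region values are those of the strongest overlapping peak, with an overlap of at least 1 bp.

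Python 3.11.15, numpy 2.4.6, pandas 2.3.3 and statsmodels 0.14.6 were used. Distances run from the midpoint to the extent of a gene, without strand, and gaps lie between protein-coding genes after overlapping ones were merged. Placement and overlap were tested on simulated data. The regions and gene lists were chosen with earlier results of these data known. A listed name, Dl, matches 2 genes in the gene table and was left out. Named in the text are flanks of the 15 strongest regions in all 3 libraries, the 5 farthest, up to 10 gaps with 3 or more regions, up to 12 genes per list (genes with a region in all 3 libraries first, then by mean fold percentile, so some stronger regions in 2 libraries go unnamed), and the 3 regions either side of the limit. Not every gene that the rule admits is named. The labels call the samples independent replicates but do not say how discs were pooled.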

Additional observations from a re-analysis of the deposited data

How the results depend on the processing

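Alternatives were 500 or 2000 bp as the distance, genes of every type, chains kept or joined by up to 5000 bp, whole regions in place of midpoints, the strongest 50% of each list, 50% coverage, −log10 q in place of fold, and leaving out each replicate with the consensus rebuilt. The number of regions was 753 with chains kept, and 314 to 431 without one replicate. The share in all 3 libraries was 39.6% at 50% coverage and 39.4% in the strongest 50% of each list. It has no value without a replicate. The difference in fold percentile from regions deep inside genes was 0.72 at 500 bp (exact sign-flip permutation p = 0.75) and -3.55 to -0.80 without one replicate. The excess in recovered peaks over deep peaks was 2.50 points in the strongest 50% (exact sign-flip permutation p = 1). With genes of every type this excess was 5.27 points (exact sign-flip permutation p = 0.5) and not positive in every library. Without replicate 3 it was 6.82 points and not positive in both remaining libraries. Using regions in all 3 libraries only, 130 gaps and 251 flanking genes were counted, by construction fewer than the 216 and 404 reported. That setting, applied to lists after the data were seen, gave 18 other transcription factor, 4 signal, 1 cuticle and 0 ribosomal protein genes. With genes of every type, non-coding genes take the place of flanks, which left 234 flanking protein-coding genes, 18 patterning, 15 homeobox, 17 other transcription factor, 7 adhesion and 1 cuticle. At 2000 bp the signal list had 6 and the cuticle list 1. The ribosomal list had 2 with chains kept or joined by 5000 bp and 0 in the strongest 50%. Without one replicate the lists had 30 to 32 patterning, 22 to 26 homeobox, 20 to 27 other transcription factor, 7 to 9 signal, 13 to 14 adhesion, 1 to 2 cuticle and 0 to 1 ribosomal protein genes. Strand and sequence were not used here, so no motif was searched. No paired analysis was possible because the peak lists analysed here belong to 1 group, whose numbers have no partner in another group. The sign-flip tests compare places within each library, and for recovered peaks the 3 libraries count nearly the same sites. Unknown depth limits every region missing from a library.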
